A study of Danio rerio with 20 samples.

Results

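The melatonin and circadian clock genes of the zebrafish embryo were read out in whole embryos at 72 hpf after exposure to HFPO-DA, a perfluorinated ether acid that the sample labels call GenX. Members were the rows of the deposited expression table named aanat1, aanat2, per1b, per2, per3, nr1d1, nr1d2a, tefa, dbpb or exorh. Of these 10 genes, 7 were found among the 9368 genes of the table, namely aanat1, aanat2, per1b, per3, nr1d1, nr1d2a and exorh, while per2, tefa and dbpb were not analysed here. All 7 passed the study's minimum on the mean in CPM, the reads of a gene scaled to a common library size, which was kept for the tests.

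All groups were wild-type embryos of the AB strain, kept singly in wells from the sphere stage and pooled whole, 8 to 10 embryos to a pool. No other test chemical was given to them. The HFPO-DA media were pH-neutralized by titration with NaOH and HCl, and part of the exposure solution was renewed daily. There were 5 groups: 3 control pools in embryo water, and 4 pools for each of the exposures to 0.5, 1, 2 or 10 mg/L. The pools carry the letters a to d in the sample names. The control library lettered d is marked by its submitters as an outlier and is not used here. The labels do not say whether the pools of a group came from separate clutches, so p-values measure the spread between these pools. The adults were kept on 14 h of light and 10 h of dark and were bred in the hour after lights came on. The embryos were pooled and frozen at 72 hpf, but the study states neither the clock hour for each pool nor the lighting during incubation. Before pooling at 72 hpf, randomly chosen embryos of each exposure had stood at room temperature and under microscope light for heartbeat counts.

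In fish, the pineal organ senses light itself and makes melatonin at night. Serotonin is acetylated by arylalkylamine N-acetyltransferase, of which aanat2 is the pineal form and aanat1 is known from the retina, and exorh encodes the opsin of pineal photoreceptors. The molecular clock runs in most cells of the animal: CLOCK and BMAL proteins switch on the period and cryptochrome genes, whose products shut off their own activators. The receptors REV-ERB, encoded by nr1d1 and nr1d2a, form an auxiliary repressive loop. Many of these transcripts rise and fall over the day, so their level at 1 time point depends on the hour.

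The libraries were shallow, which sets what can be seen of these genes. Between 104350 and 581494 reads fell on genes in a pool, and 1 read was worth between 0.462 and 2.42 units of the TMM-normalized value, the scale on which each library was normalized by the authors. Over all 19 pools, per1b had 700 reads and nr1d2a had 448, whereas exorh had 73, nr1d1 57, per3 47, aanat1 28 and aanat2 27. The 12 exposed pools a to c had 137539 to 321184 reads on genes and the control pools 274326 to 395594. For genes with few reads, a shallower pool is more often without a read, so counts of such pools also depend on depth. The exposed pools lettered d stood apart from the others in 50 genes, per1b among them, so the members' changes against control are also given without these pools. These were whole embryos: the muscle actin actc1b had at least 1716 reads in every pool, the epidermal keratin krt4 at least 2113 and the photoreceptor factor crx at least 36. For a small organ in such a sample, fewer cells of a type and less RNA per cell cannot be told apart. The tests below were made with limma across the 6933 genes that passed the filter, on log2 of the value plus 0.5, and a gene was called at a Benjamini-Hochberg adjusted p under 0.1.

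The period gene per1b, which encodes a repressor of the clock, was the best covered member. Its values were 28.4, 24.8 and 38.5 in control pools a to c. In pools a to d they were 29.7, 27.3, 19.0 and 55.8 with 0.5 mg/L, and 28.8, 59.4, 24.5 and 52.7 with 1 mg/L. Embryos in 2 mg/L gave 20.2, 29.2, 32.5 and 52.1, and those in 10 mg/L gave 20.4, 36.9, 25.2 and 50.8. The groups overlapped at every exposure, and within the exposures pool d stood high in all 4, as did pool b at 1 mg/L. The control mean was 30.6 ± 7.12 (SD, n = 3), and with rising dose the means were 32.9 ± 15.9, 41.3 ± 17.3, 33.5 ± 13.4 and 33.3 ± 13.6 (SD, n = 4 each). Among exposed pools, 5 of 16 lay above all control pools, 4 below and 7 between them.

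The REV-ERB receptor gene nr1d2a had means that fell from control up to 2 mg/L but were higher again at 10 mg/L. It had values of 34.7, 19.3 and 22.8 in control pools a to c and of 19.8, 21.8, 20.3 and 33.3 in pools a to d of the 0.5 mg/L group. In the same letter order, the 1 mg/L pools had 19.2, 17.5, 17.3 and 27.7, the 2 mg/L pools 25.8, 14.6, 12.4 and 21.7, and the 10 mg/L pools 18.6, 22.7, 26.2 and 29.0. No exposed pool was above control pool a, 6 of 16 were below all control pools and 10 lay between. The means were 25.6 ± 8.10 (SD, n = 3) in control pools and 23.8 ± 6.39, 20.4 ± 4.95, 18.6 ± 6.21 and 24.1 ± 4.50 (SD, n = 4 each) with rising dose, differences smaller than the spread within the control group.

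**Figure D1:**
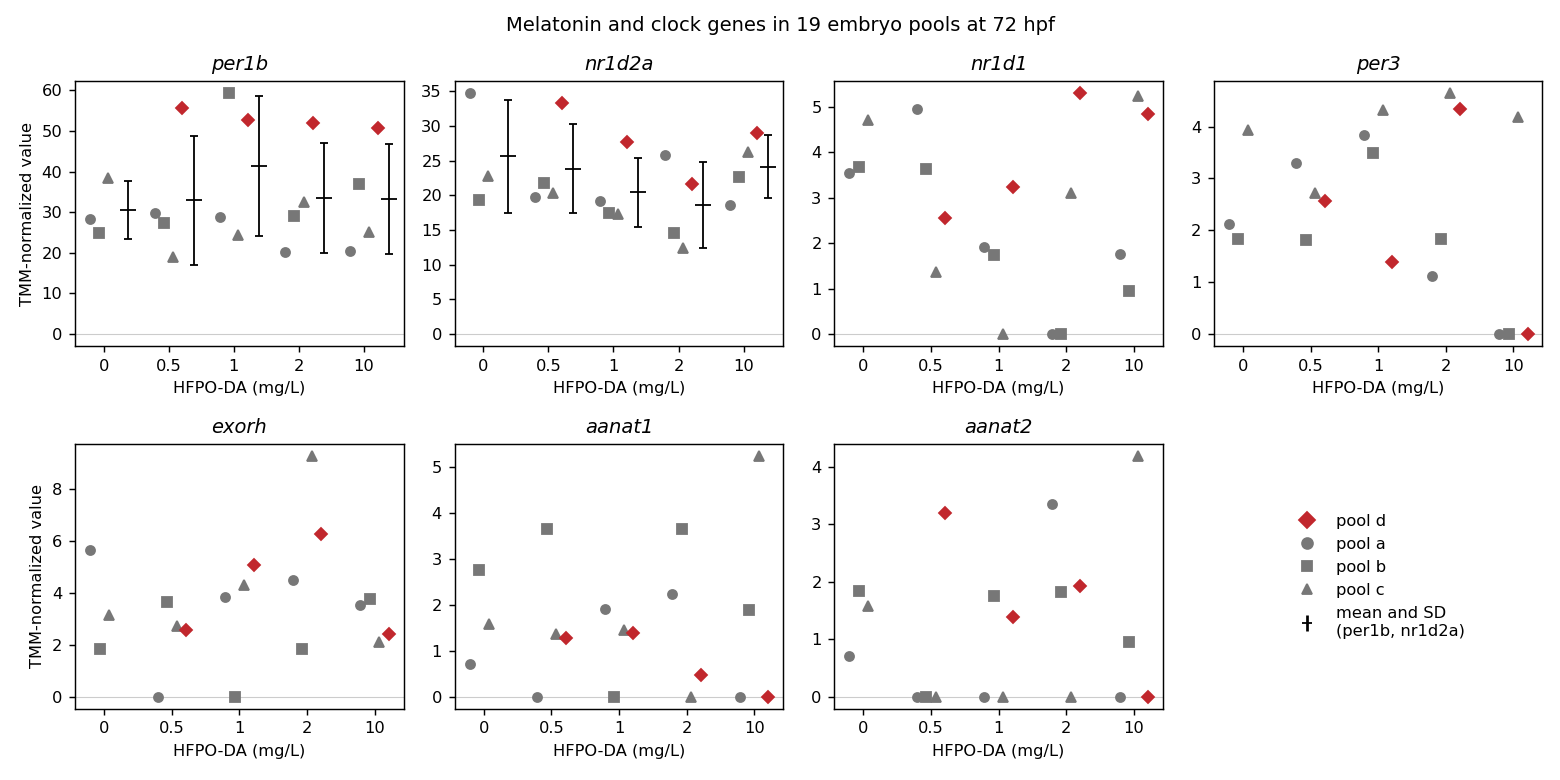
TMM-normalized value of each member in each pool (y axis, linear, 0 where no read was counted) against HFPO-DA concentration in mg/L (x axis, not to scale), with the pools lettered d in red, the others in gray, and the mean with its SD beside the points for per1b and nr1d2a. The red per1b points lie between 50.8 and 55.8 at every exposure, while the members with few reads scatter between 0 and 9.29 in all groups.

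The members with few reads did not resolve a difference. nr1d1, the second REV-ERB gene, had 5, 4 and 6 reads in the control pools, and its 16 exposed pools ranged from 0 to 11 reads. It was below all control pools in 11 exposed pools, above them in 4 and between them in 1. per3, a further period gene, had 3, 2 and 5 reads in the control pools and 37 reads in all exposed pools, of which only 4 reads, all in pool c, were found at 10 mg/L. The pineal opsin exorh had 8, 2 and 4 reads in control pools and between 0 and 13 in exposed pools, and its highest value was 9.29 in pool c at 2 mg/L.

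For the melatonin enzymes, both N-acetyltransferase genes had at most 3 reads in any control pool, so no fitted fold change against control is given for them, only the reads and the ratio of their sums with its counting interval. aanat2 had 1, 2 and 2 reads in control pools, and a read was found in 8 of the 16 exposed pools, with at most 5. aanat1 had 1, 3 and 2 reads in control pools, and in 11 of the exposed pools at least 1 read was found. Summed over pools, aanat2 had 22 reads in exposed and 5 in control pools, or 5.26 (95% exact Poisson interval 3.30 to 7.97) and 4.92 (1.60 to 11.5) CPM, a ratio of 1.07 (0.395 to 3.62). For aanat1 the sums were 22 reads in exposed pools and 6 in control pools, or 5.26 and 5.91 CPM, a ratio of 0.891 (0.350 to 2.69). Without the pools d the ratio was 0.822 (0.256 to 3.07) for aanat2, below 1, and that for aanat1 was above 1 (interval 0.407 to 3.42). These intervals cover counting error only, and all of them are wide on either side of 1.

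The same sums were taken for the other members. The exposed pools had 0.681 times the control rate for nr1d1 (95% exact interval 0.370 to 1.32), 0.899 times for per3 (0.438 to 2.03), 1.02 times for exorh (0.565 to 1.99) and 0.857 times for nr1d2a (0.684 to 1.08). The ratio for per1b was 1.22 (1.00 to 1.51), and of its 584 reads in exposed pools 330 came from the 4 pools lettered d. Without those pools the ratio for per1b was 0.900 (0.720 to 1.13), below 1, and that for exorh was 0.881 (0.453 to 1.80), also below 1. It was then 0.747 (0.582 to 0.965) for nr1d2a, 0.493 (0.235 to 1.05) for nr1d1 and 0.863 (0.389 to 2.05) for per3. A sum over pools leaves out the spread between them, which the fits below include.

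**Figure D2:**
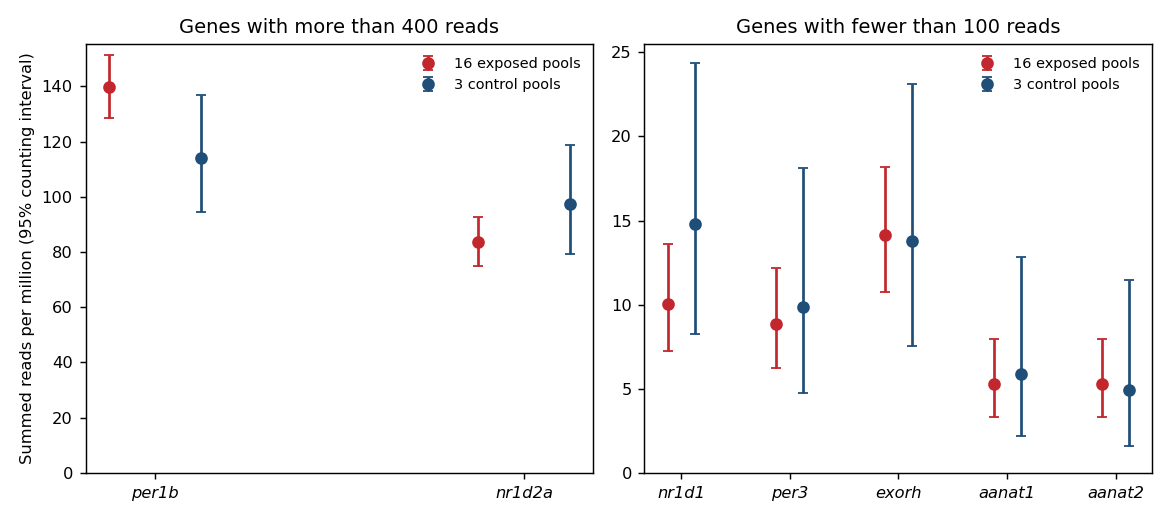
Read rate in CPM (y axis, linear, from 0), summed over the 16 exposed pools (red, left of each pair) and the 3 control pools (blue), with 95% exact Poisson intervals that cover counting error only. The intervals of exposed and control pools overlap in all 7 members.

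Whether HFPO-DA moved any member was asked at each exposure against control. In the 0.5 mg/L pools limma called 0 of the 7 members, beside 0% of all genes tested. The 1 mg/L pools gave 0 members and 0% of all genes. The 2 mg/L and 10 mg/L pools gave 0 members as well, beside 0.0144% of all genes, 1 gene each time. Unadjusted p was under 0.05 in 0 members at each exposure, as against 430, 275, 336 and 292 of the 6933 genes with rising dose, and 0 members were called by edgeR or DESeq2 on the recovered reads. The log2 fold changes of per1b were 0.02 (SE 0.27), 0.36 (SE 0.27), 0.07 (SE 0.26) and 0.06 (SE 0.27) in that order of exposure, with adjusted p between 0.987 and 0.998 (limma). Those of nr1d2a were -0.09 (SE 0.27), -0.30 (SE 0.28), -0.46 (SE 0.29) and -0.06 (SE 0.27). Without the pools d the 4 values were -0.27, 0.21, -0.16 and -0.17 for per1b, 3 of them below 0, and -0.26, -0.46, -0.56 and -0.15 for nr1d2a, with 0 members called. Over the 5 members above the floor in control the widest values were -0.996 for nr1d1 at 1 mg/L (SE 0.56, unadjusted p = 0.0819, adjusted p = 0.998 from limma) and 0.49 for exorh at 2 mg/L (SE 0.56).

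The 4 exposures combined gave the same picture. For the mean of the exposures against control, in 1 fit over all pools, limma called 0 of 7 members and 0% of all genes. An unadjusted p under 0.05 was found in 0 members and in 330 genes, and edgeR and DESeq2 also called 0 members. The log2 fold change was 0.13 for per1b (SE 0.25), -0.23 for nr1d2a (SE 0.24), -0.70 for nr1d1 (SE 0.49), -0.14 for per3 (SE 0.47) and -0.05 for exorh (SE 0.48), with adjusted p between 0.980 and 0.997 (limma). Without the pools lettered d the values were -0.10 for per1b, whose sign rested on those pools, -0.36 for nr1d2a, -0.92 for nr1d1, -0.12 for per3 and -0.13 for exorh, with adjusted p between 0.892 and 0.979 (limma). Without control pool a the value for nr1d2a was 0.01, and without control pool b that of per1b was -0.01.

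Differences among the 4 exposures were tested with limma's moderated F statistic. Its contrasts leave out the control pools, which are still in the fit that estimates the spread. The F test called 0 members and 0% of all genes, with 0 members and 310 genes at an unadjusted p under 0.05. The adjusted p of the members lay between 0.964 and 0.999 (limma). A slope on log2 of the dose among the exposed pools was called in 0 members and in 0% of all genes, with 0 members and 330 genes at an unadjusted p under 0.05. edgeR and DESeq2 called 0 members in both. The steepest member was per3, at -0.23 per doubling of the dose (SE 0.12, unadjusted p = 0.0507, adjusted p = 0.997 from limma). The per3 reads were absent from pools a, b and d of the 10 mg/L group, while each of the 12 pools with a lower dose had at least 1.

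**Figure D3:**
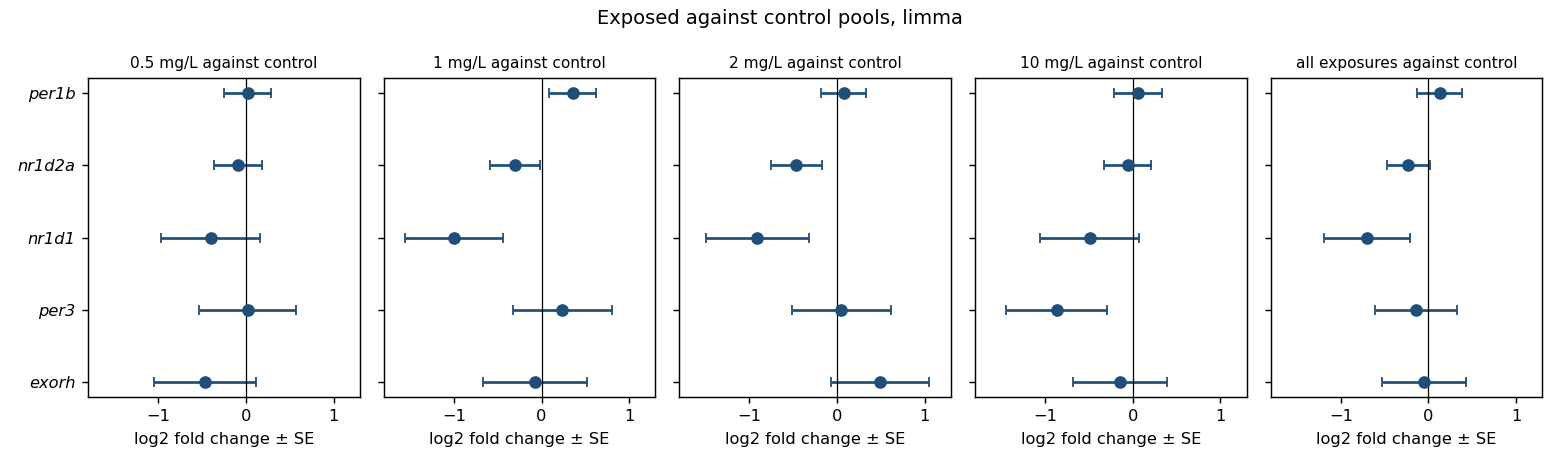
log2 fold change (x axis) with its standard error at each exposure against control and for all exposures combined. Shown are the 5 members above the floor in control: per1b, nr1d2a, nr1d1, per3 and exorh. The point of per3 at 1 mg/L is drawn although no pool of that exposure had more than 3 of its reads. All values lie between -0.996 and 0.49, and 0 members were called.

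The rest of the pathway was read from lists of related genes. Beside the members, 35 listed genes of the clock, of melatonin and of pineal photoreceptors had a row in the table, and 23 passed the filter. None (0) of these 23 was called in any of the 7 exposure comparisons by limma, edgeR or DESeq2, and unadjusted p was under 0.05 in at most 3 of them in a comparison. For the exposures combined, 8 of the 23 were higher and their median log2 fold change was -0.06, against -0.05 over all genes tested. The lowest unadjusted p in that comparison belonged to bhlhe40, a repressor of CLOCK and BMAL, at -0.61 (SE 0.22, unadjusted p = 0.00816, adjusted p = 0.980 from limma), and the lowest value was that of nr1d2b, a paralog of nr1d2a, at -0.70 (SE 0.49).

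By role, the 8 period, cryptochrome and related repressors tested were at a median of -0.17 on the log2 scale in all exposures combined, with 2 higher, and at -0.30 with 0 higher when the pools d were left out. The 5 REV-ERB and ROR receptors had a median of -0.23, with 2 higher, and of -0.36 without the pools d. The D-box factors, through which light and the clock reach other genes, had a median of -0.15 over 4 genes, with 1 higher, and of -0.26 without the pools d. They were dbpa at -0.25 (SE 0.38), nfil3-6 at -0.06 (SE 0.41), nfil3 at -0.43 (SE 0.43) and hlfa at 0.51 (SE 0.39). The genes counted as higher in these lists were per1b and bhlhe41, rorb and rorcb, and hlfa. Of these, bhlhe41 had 26 reads over all pools, rorb 16, rorcb 21 and hlfa 20. Each had fewer reads than aanat1 (28) or aanat2 (27).

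The kinases that tag period proteins for breakdown, csnk1db, csnk1e and csnk1da, were at -0.03 (SE 0.22), -0.32 (SE 0.33) and -0.06 (SE 0.44). Of the light-induced DNA repair genes, the damage sensor xpc was at 0.10 (SE 0.25), the glycosylase neil1 at 0.19 (SE 0.25) and the cryptochrome cry-dash at 0.28 (SE 0.38). Upstream of the acetyltransferases, ddc, which makes serotonin, was at -0.57 (SE 0.45). Each of these 7 values, for the exposures combined, was less than 2 standard errors from 0. With rising dose xpc was at 0.32, 0.25, 0.28 and -0.44 against control. Its slope on log2 of the dose was -0.18 (SE 0.06, unadjusted p = 0.00533, adjusted p = 0.983 from limma). At 10 mg/L the xpc values were 24.8, 30.3, 25.2 and 7.26 in pools a to d, the last from 3 reads. Control pools a to c had 23.4, 32.2 and 24.4, so only pool d lay below the control pools at 10 mg/L. The slope of xpc without that pool is not given here. The slopes of cry-dash and neil1 were -0.20 (SE 0.10) and -0.05 (SE 0.06). At 2 mg/L ddc was at -1.10 (SE 0.54, unadjusted p = 0.0475, adjusted p = 0.912 from limma). It had 53 reads over all pools.

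Other steps lay below the depth. The 4 melatonin receptor genes in the table, mtnr1aa, mtnr1ba, mtnr1bb and mtnr1c, had 7 reads together over all 19 pools, so none was tested. The clock activators were not analysed here.

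Photoreceptors of the eye share their machinery with the pineal, and their markers are given beside the members for that reason. Of 10 cone markers tested, 0 were higher in the exposed pools combined, and the median log2 fold change was -0.48, with 9 at an unadjusted p under 0.05 and 0 called by limma, edgeR or DESeq2. The cone markers with the highest mean expression, gngt2b, opn1sw1 and opn1lw2, had log2 fold changes of -0.41, -0.48 and -0.29. The 7 rod markers had a median of -0.43, with rho at -0.40, gngt1 at -0.53 and gnat1 at -0.29. The pools d were low in these markers, as given below, and without them the medians were -0.39 for cone and -0.37 for rod markers, again with 0 higher. The pineal and retinal factor crx was at -0.24 (SE 0.16), the homeobox gene otx5 at -0.05 (SE 0.33) and exorh, as above, at -0.05. otx5 averaged 27.2 in pools d, 11.6 in the other exposed pools and 14.6 in control pools. The 4 pineal photoreceptor genes tested, with aanat2 at the floor in control among them, had a median of -0.05 with 1 higher. Without the pools d their median was -0.21 with 0 higher. Whether the cone and rod markers bear on the members was not tested.

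The high per1b values lay in pools of 1 letter, and this was followed across the table after those values had been seen. Among the 16 exposed pools, each letter was compared with the other letters by limma, with the exposure as a covariate. In the 4 pools d, with rising dose, per1b had 55.8, 52.7, 52.1 and 50.8, whereas the 12 other exposed pools had a lowest value of 19.0, a median of 28.0 and a highest of 59.4. The means were 52.8 ± 2.11 (SD, n = 4) in pools d and 29.4 ± 10.8 (SD, n = 12) in the others. All 4 pools d were above every control pool, and 1 of the 12 others, pool b at 1 mg/L, was above the lowest pool d.

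In this comparison per1b was called, at a log2 fold change of 0.90 (SE 0.19, adjusted p = 0.00515 from limma), as 1 of 7 members beside 0.721% of all genes, or 50 genes. edgeR gave 0.86 (adjusted p = 1.08e-05) and DESeq2 0.84 (adjusted p = 0.00505). The comparison was chosen for per1b's own values, so its p describes that contrast and is no independent test of per1b. The call was lost without pool d at 0.5 mg/L (0.82, adjusted p = 0.120) and in limma without the trend option (adjusted p = 0.402).

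The other letters gave no such value. Comparison of pools a with the rest called 0 members beside 0.0721% of all genes, which were 5 genes, and pools b and pools c called 0 members beside 0% of all genes in each case. In these 3 comparisons 428, 441 and 367 genes and 1, 0 and 2 members had an unadjusted p under 0.05, and edgeR and DESeq2 called 0 members. For pools d, 587 genes and 2 members had an unadjusted p under 0.05. per1b was at -0.57 (SE 0.19, adjusted p = 0.565) in pools a, 0.19 (SE 0.19, adjusted p = 0.923) in pools b and -0.53 (SE 0.19, adjusted p = 0.690) in pools c, each set against the other letters, which include pools d.

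Among the related genes, 2 more rose in pools d. The first was ciarta, whose product is a repressor of CLOCK and BMAL. It had 36.5, 34.7, 42.4 and 33.9 in the 4 pools d with rising dose, against 9.10 to 26.0 in the 12 other exposed pools and 26.9, 17.5 and 36.2 in control pools. Its pools d did not overlap the other exposed pools, and its log2 fold change was 0.94 (SE 0.22, adjusted p = 0.0171 from limma). That call was lost without pool d at 0.5 mg/L (adjusted p = 0.324), without pool d at 2 mg/L (adjusted p = 0.245) and in limma without the trend option (adjusted p = 0.433).

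The second was otx5, a homeobox gene of pineal and retinal photoreceptors. Its values were 30.1, 31.0, 26.0 and 21.8 in pools d, against 6.78 to 16.4 in the other exposed pools and 14.2, 13.8 and 15.7 in control pools. The pools d lay above all 15 other pools, and the log2 fold change was 1.23 (SE 0.26, adjusted p = 0.00612 from limma). The call was lost without pool d at 1 mg/L (1.05, adjusted p = 0.172) and in limma without the trend option (adjusted p = 0.166). All 4 pools d were above all 12 other exposed pools in 0.231% of the genes tested, 16 genes, and below all of them in 0.13%, 9 genes. ciarta and otx5 were among the 16.

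**Figure D4:**
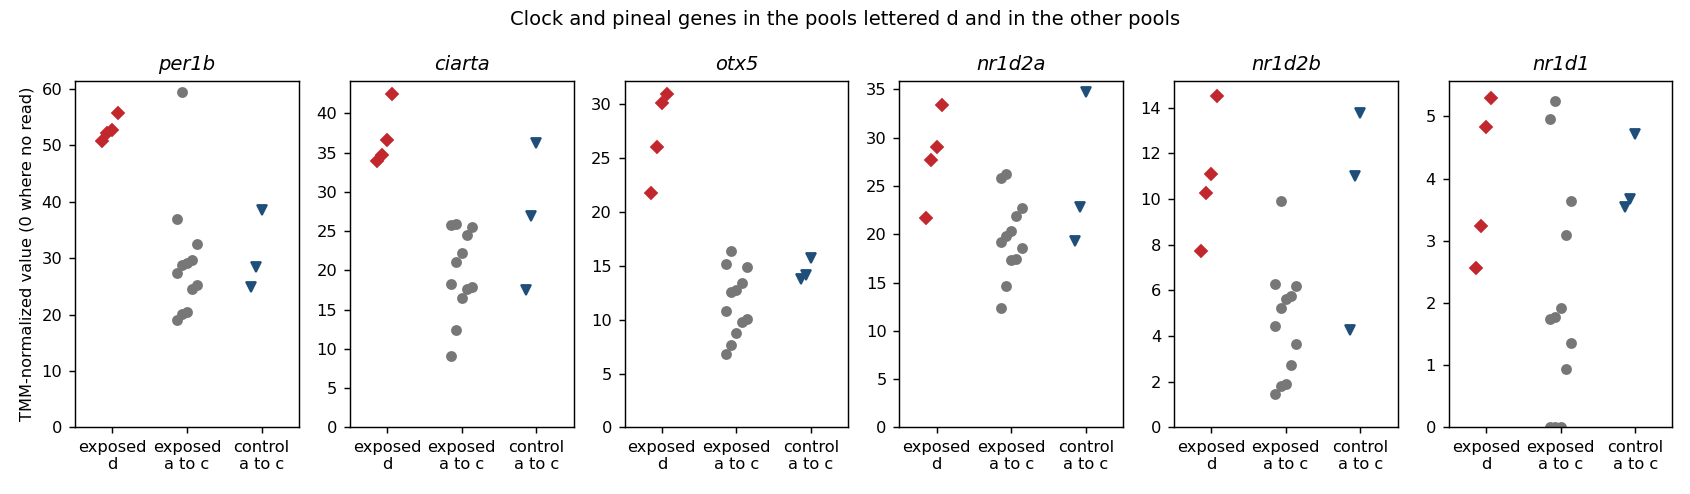
TMM-normalized value (y axis, linear, from 0) of per1b, ciarta, otx5, nr1d2a, nr1d2b and nr1d1 in the 4 exposed pools lettered d (red), the 12 exposed pools lettered a to c (gray) and the 3 control pools (blue), each point 1 pool. In ciarta and otx5 the red points lie above all gray points, and in per1b 1 gray point, at 59.4, lies above them.

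The REV-ERB genes were higher in pools d than in the other exposed pools, without being called by limma. Their means in pools d were near those of the control pools. In pools d, the other exposed pools and control pools the means were 27.9, 19.7 and 25.6 for nr1d2a. For nr1d2b they were 10.9, 4.58 and 9.68, and for nr1d1 3.99, 2.06 and 3.98. nr1d2a averaged 27.9 ± 4.81 (SD, n = 4) in pools d and 19.7 ± 4.10 (SD, n = 12) in the other exposed pools, with pool d the highest at 3 of 4 exposures. Its log2 fold change was 0.51 (SE 0.22, adjusted p = 0.486), and no pool d was above control pool a. nr1d2b was at 1.30 (SE 0.42, adjusted p = 0.227), with pool d the highest at all 4 exposures, and edgeR gave it an adjusted p of 0.0233. nr1d1 was at 0.89 (SE 0.44, adjusted p = 0.588), from 24 reads in pools d and 18 in the other 12.

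The remaining members showed no such height. exorh was at 0.33 (SE 0.45, adjusted p = 0.903) and per3 at -0.07 (SE 0.43, adjusted p = 0.987). The summed reads of aanat2 were 12 in pools d and 10 in the other exposed pools, or 7.03 (95% exact Poisson interval 3.63 to 12.3) and 4.05 (1.94 to 7.44) CPM. For aanat1 they were 6 and 16, or 3.51 (1.29 to 7.65) and 6.48 (3.70 to 10.5) CPM. Over the 23 related genes, 18 were higher in pools d with a median log2 fold change of 0.41, against 0.05 over all genes tested. Of the 23, 2 were called higher and 1 lower, xpc, a sensor of DNA damage, at -0.80 (SE 0.20, adjusted p = 0.0376 from limma). Its values in pools d were 30.8, 20.3, 25.6 and 7.26 with rising dose, the last from 3 reads. The other exposed pools had 24.8 to 42.6, and at 0.5 and 2 mg/L pool b was lower in xpc than pool d. How the xpc call held with single pools left out is not given here.

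Other markers moved with the pools d, and their part in the per1b, ciarta and otx5 values was not tested. Of the 10 cone markers tested 8 were lower in pools d and 3 were called, namely gnat2 at -0.61, gngt2b at -0.45 and opn1mw1 at -0.50 on the log2 scale. Summed over 13 listed cone markers, the values were 2160 to 2493 in pools d, against 2320 to 4170 in the other exposed pools and 3244 to 4069 in control pools. All 7 rod markers were lower, with gnat1 called at -0.68, and the sums over 8 listed rod markers ran from 411 to 566 in pools d, against 420 to 758 in the other exposed pools.

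Outside the eye, the genes of 2 HSP90 chaperones, hsp90aa1.1 and hsp90aa1.2, summed to 141 to 179 in pools d, against 224 to 551 in the other exposed pools and 436 to 498 in control pools. Both were also called higher in pools a, at 0.82 and 0.72 on the log2 scale, against the other letters, which include pools d. The pancreatic enzyme genes try and ctrb1 and the liver gene fabp10a fell, with log2 fold changes of -1.68, -1.99 and -1.35. he1a, which encodes a hatching enzyme, had 33 reads in the 4 pools d, against 3 in the 12 other exposed pools and 1 in the control pools. Of these 6 genes, all but fabp10a were named after their values had been seen. The pools d of the 3 lower doses were also the deepest of all 19, with 443076, 581494 and 579196 reads, and that of 10 mg/L was the shallowest, with 104350 reads and a per1b value of 50.8. The part of depth was not tested.

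Whether the clock genes varied together was asked in the 15 pools a to c only, since the pools d stand apart. Among per1b, ciarta, otx5 and nr1d2a, 6 pairs were compared on the log2 scale. For per1b and ciarta, Pearson's r was 0.20 (permutation p = 0.467, adjusted 0.757) and Spearman's rho 0.09 (permutation p = 0.753, adjusted 0.904), and r was 0.09 without the 2 pools farthest from the median of per1b. For per1b and otx5, r was 0.13 (permutation p = 0.642, adjusted 0.770) and rho 0.31 (permutation p = 0.254, adjusted 0.530), with r at 0.33 without the 2 farthest pools. The highest r was that of otx5 and nr1d2a, at 0.37 (permutation p = 0.181, adjusted 0.553), with a rho of 0.49 (permutation p = 0.0663, adjusted 0.398) and an r of 0.50 without the 2 farthest pools. For ciarta and nr1d2a, r was 0.36 (permutation p = 0.184, adjusted 0.553) and rho 0.31 (permutation p = 0.265, adjusted 0.530). Their r was 0.56 without the 2 pools farthest from the median of ciarta. For per1b and nr1d2a, r was -0.18 (permutation p = 0.505, adjusted 0.757) and rho -0.16 (permutation p = 0.575, adjusted 0.863). For ciarta and otx5, r was -0.04 (permutation p = 0.894, adjusted 0.894) and rho 0.03 (permutation p = 0.925, adjusted 0.925). No pair passed an adjusted p of 0.1, so no joint variation was resolved outside the pools d.

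The genes whose pattern was most like that of a member were taken by Pearson's r of the log2 values over all 19 pools, among genes with a mean of at least 10 CPM. They describe these pools only, and the r values share the libraries, their depth and the pools d. For per1b they were herpud2 (0.74), katnal1 (0.72) and hmgb3a (0.70), and in the 15 pools a to c their r was 0.75, 0.67 and 0.53. For nr1d2a they were cd248a, rhogc and gstr, with r of 0.71 each. For nr1d1 they were kdm4b (0.74), hnrnpub (0.73) and its own relative nr1d2b (0.73). For exorh, which had 73 reads, they were zgc:110591 (0.79), zgc:114181 (0.73) and eif4eb (0.71).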

How the data were processed

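RNA of 19 pools of whole embryos was analysed. Per the labels and the study's methods, the libraries were made by oligo-dT priming with molecular identifiers, and reads were trimmed with Trimmomatic 0.40, mapped to GRCz10 with STAR, deduplicated with UMI-tools 1.1.2 and counted with HTSeq 0.13.5. The authors then applied TMM normalization, and the deposited values are this signal, 1 column per pool. In these columns a zero stands as the worth of 0.5 reads. Of the remaining values, 100% were multiples of 1 read (within 0.01), from which whole reads were recovered. In the values printed and drawn here zeros are given as 0. The limma fits kept the deposited worth of 0.5 reads for them, and zeros set to 0 in the fit were an alternative. Groups in which every pool had at most 3 reads of a gene were taken as at the floor, and a member at the floor in control has no fold change against control.

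The study's noiseqbio test was not installed, so limma 3.58.1 (R 4.3.3), a two-sided moderated test with the trend option of eBayes, was used on log2 of the value plus 0.5 for 6933 genes. Each exposure was fitted with control alone, and the exposures combined, the F statistic and the letters in fits of their own. edgeR 4.0.16 and DESeq2 1.42.0 were alternatives on the recovered reads. Other alternatives were pseudocounts of 0.1 and 2, zeros set to 0, other filters, other scalings, no trend, a replicate block, a threshold of 0.05 and leaving out each pool. Permutation tests of correlations used 100000 resamples (SciPy 1.17.1, two-sided). The exposure comparisons and that of pools d were run on simulated data first, with limma, edgeR and DESeq2. The comparisons of pools a, b and c, the permutation tests and the exact intervals were not. The members, lists and comparisons were chosen with earlier results of these data known, and the comparison of letters and the fits without pools d after the values of per1b had been seen. Named genes were the members, listed genes called in a comparison, the 3 of each list with the highest mean, and the 3 most like each member. Further listed genes were named where their list is described, and actc1b, krt4 and fabp10a came from a check of tissues. The genes hsp90aa1.1, hsp90aa1.2, try, ctrb1 and he1a were added after their values in pools d had been seen. Gene names are those of the table or RefSeq synonyms, and tefb, which RefSeq also gives as a synonym of tefa, was not counted as a member. No sequences or coordinates are given, and the promoter motif counts planned were not run, since no sequence table of these genes was used here.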

Additional observations from a re-analysis of the deposited data

Results flagged for a closer look

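Within the exposures, 3 values stood far from the other 3 pools of their group of 4, by a gap over the range above Dixon's 95% critical value. For normally distributed values chance flags about 1 in 20 groups, and 23 groups were checked. That rate does not hold for counts near 0. The value of nr1d2a in pool d at 0.5 mg/L was 33.3, against 19.8 to 21.8 in the other pools (gap over range 0.851). aanat2 had 5 reads in pool d at 0.5 mg/L and 0 in the other pools there, and per3 had 4 reads in pool c at 10 mg/L and 0 in the others (gap over range 1.0 in both). These last values rest on 5 reads or fewer, and 3 pools without a read beside 1 pool with reads give 1.0 whatever the count.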

How the results depend on the processing

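None of the alternatives called a member in the 7 exposure comparisons (0 of 7 members under each). The count of all genes called moved more: without control pool a it was 46 at 0.5 mg/L and 31 for the exposures combined, against 0 in both, and 8 at 2 mg/L and 3 at 10 mg/L, against 1. edgeR called 5 genes for the exposures combined, 3 among the exposures and 2 for the slope. In pools d against the other letters, edgeR called 177 genes, DESeq2 79 and limma without trend 1, against 50, and leaving out 1 pool gave 25 to 82. The 1 member called there, per1b, was not called without trend (0 members) and with 1 pool left out the count ran from 0 to 1. In pools a, edgeR called 20 genes and limma without trend 0, against 5. In pools b and c, edgeR called 4 and 9, against 0.

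The sign of per1b was not stable against control. For 0.5, 2 and 10 mg/L and the exposures combined its log2 fold change was -0.27, -0.16, -0.17 and -0.10 without all pools d. A replicate block on the letters gave the same values by construction, since no control pool d was used. It was -0.033 with 0.5 mg/L when values were rescaled to CPM. Leaving out 1 pool gave, in the same order, ranges of -0.27 to 0.24, -0.16 to 0.28, -0.17 to 0.26 and -0.0088 to 0.30. At these single exposures the lowest value is again the fit without pool d. The ranges for nr1d2a were -0.27 to 0.15 with 0.5 mg/L, -0.24 to 0.18 with 10 mg/L and -0.41 to 0.0085 combined. For per3 they were -0.32 to 0.14 combined and -0.38 to 0.31 in pools d, and for exorh -0.39 to 0.31 combined. With zeros set to 0 in the fit, the values combined were -0.37 for per3 and -0.94 for nr1d1, against -0.14 and -0.70. The sign of nr1d1 and the height of per1b (0.82 to 1.00), ciarta and otx5 in pools d kept their direction under all alternatives run. DESeq2 gave no adjusted p for otx5. The causes were not tested.

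The letters were not taken to pair the pools, since not every same-letter pair correlated above 0.1 in its deviations. Counting error in shallow libraries lowers such a correlation, so low values do not settle whether the letters pair the pools. The pairs ran from -0.06 to 0.07 for a to c, against -0.09 to 0.12 between letters. The pools d of the 3 lower doses did go together (0.13 to 0.18), while that of 10 mg/L was not correlated with them (-0.0346 to -0.0022). Those 3 were the deepest libraries, with 443076 to 581494 reads, and that of 10 mg/L was the shallowest, with 104350. The part of depth in these values was not tested. With a replicate block, 29, 2 and 3 genes were called at 0.5, 1 and 2 mg/L. Standard errors against control were 0.47 to 0.59 on the log2 scale for nr1d1, per3 and exorh, and 0.24 to 0.29 for per1b and nr1d2a.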
